A study of Mus musculus with 6 samples.

Results

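The mitochondrial ribosomal protein genes were taken as every array feature whose mouse gene symbol begins with Mrpl or Mrps followed by a digit, with pseudogenes left out. This gave 76 of 25206 features, 48 named for the large ribosomal subunit (Mrpl) and 28 named for the small subunit (Mrps), on 17 chromosomes. The RefSeq gene table lists 78 such genes, and the other 2, Mrpl27 and Mrps18c, were not analysed here. Expression was measured on whole-transcript microarrays in thioglycollate-elicited peritoneal macrophages, the cells that gather in the abdominal cavity after an irritant is injected. The study compared 3 arrays of Tet2-deficient (Tet2-/-) mice with 3 arrays of wild-type littermates, all on the C57BL/6J background. Every mouse had received 1 ml of aged 4% Brewer's thioglycollate 4 days before the cells were collected. The cells were plated in medium with 10% FBS, and both genotypes were then treated for 10 h with LPS (10 ng/ml) together with IFNg (2 ng/ml), so that no untreated macrophages enter the comparison. The samples are described as biological replicates, and the labels give neither the age of the mice nor whether an array holds 1 mouse or a pool.

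Mitochondria keep their own ribosome, the mitoribosome, which makes the few proteins encoded by mitochondrial DNA, all of them subunits of the respiratory chain and the ATP synthase. Its RNAs come from the mitochondrial genome, whereas all of its proteins are encoded in the nucleus, made in the cytosol and imported, and some have counterparts in bacterial ribosomes while others are found only in mitochondria. Macrophages activated with LPS and IFNg are known to shift their metabolism from respiration towards glycolysis. Tet2 is an enzyme that oxidises 5-methylcytosine in DNA.

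The genes lie apart in the genome, and what their start regions hold is shown before the expression values. RefSeq (GRCm38.p6) lists a window of 250 bases before to 50 bases after the start for 67 of the 76 genes. Mrpl13, which with Mrpl22 passed the test of expression described below, has no such window. The first listed start of each gene was used. Stretches of 4 start regions are printed, and of their genes only Mrpl22 passed that test. The first is the stretch before Mrpl22, the gene with the lowest change, in which CCGGAAG (a match to the core bound by ETS factors such as GABP) and TGCGCA (a match to the core of the nuclear respiratory factor 1, NRF1, site) are in capitals. The second is the stretch before Mrps21, a small-subunit gene with separated groups, which holds neither before its start. The third is the stretch before Mrps18b, the gene with the highest change, with TGCGCA in capitals. The last line is the 41 bases between the start of Mrps11, on the plus strand, and the start of Mrpl46, on the minus strand, which run away from each other. All are written 5′ to 3′ on the strand of the gene, the last on the plus strand, at chr11:58171414-58171663 (plus strand), chr3:95871515-95871764 (minus strand), chr17:35916441-35916690 (minus strand) and chr7:78783090-78783130.
Mrpl22: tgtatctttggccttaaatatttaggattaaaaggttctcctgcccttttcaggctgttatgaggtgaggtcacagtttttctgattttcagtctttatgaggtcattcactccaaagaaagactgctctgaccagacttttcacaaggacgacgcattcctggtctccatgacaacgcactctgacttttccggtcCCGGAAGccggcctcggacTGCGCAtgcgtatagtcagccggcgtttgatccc
Mrps21: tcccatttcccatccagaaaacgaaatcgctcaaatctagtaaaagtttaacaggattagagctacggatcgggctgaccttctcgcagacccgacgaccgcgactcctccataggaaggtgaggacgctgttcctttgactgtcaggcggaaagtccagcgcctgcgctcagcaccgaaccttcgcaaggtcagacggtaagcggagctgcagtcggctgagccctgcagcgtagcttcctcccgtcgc
Mrps18b: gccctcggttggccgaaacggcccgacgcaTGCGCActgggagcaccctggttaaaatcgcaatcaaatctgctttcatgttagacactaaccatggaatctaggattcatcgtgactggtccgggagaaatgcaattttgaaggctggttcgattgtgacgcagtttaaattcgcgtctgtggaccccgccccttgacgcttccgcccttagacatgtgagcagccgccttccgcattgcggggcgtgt
Mrps11 to Mrpl46: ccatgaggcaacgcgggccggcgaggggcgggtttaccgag

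Before Mrpl22 the ETS letters stood 53 to 47 bases before the start and the NRF1 letters 34 to 29 bases before it. In Mrps18b the NRF1 letters first stood at -220 relative to the start and again at 31, inside the transcribed part, where the ETS letters also stood, on the other strand, from 43. Mrps21 had the ETS letters after its start as well, on the other strand from 18, so that both windows count among those with a match below although the printed stretches show less. Over the 67 windows, CCGGAAG on either strand was found in 23, or 34.3%, against 23.3% of 60 respiratory chain subunits, 18.1% of 9166 genes whose mean level was above the median of all features and 9.12% of all 27025 windows. TGCGCA, which reads the same on both strands, was found in 21 (31.3%), against 23.3%, 13.9% and 8.06% in the same 3 sets. AAGATGGC on either strand, a match to the site of YY1, was found in 12 (17.9%), against 13.3%, 4.80% and 2.88%. The TATA box letters TATAAA on either strand were found in only 4 windows (5.97%), against 11.7%, 7.50% and 14.2%. That share was close to the one of genes above the median level. Matches of different words were counted wherever they lay, overlapping or not, and any of the ETS, NRF1 and YY1 words was found in 41 windows (61.2%), against 48.3%, 32.0% and 17.9%. Cytosolic ribosomal proteins reached a like share, 60.0% of 40 windows. ETS matches clustered at the start, with a median first base at -15 and 26 of 28 matches from 100 bases before the start onwards, 8 of 12 YY1 matches lay at or after the start and 4 before it (median first base 15), and NRF1 matches lay further out (median -62). A match is a description of letters and shows no binding.

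**Figure D1:**
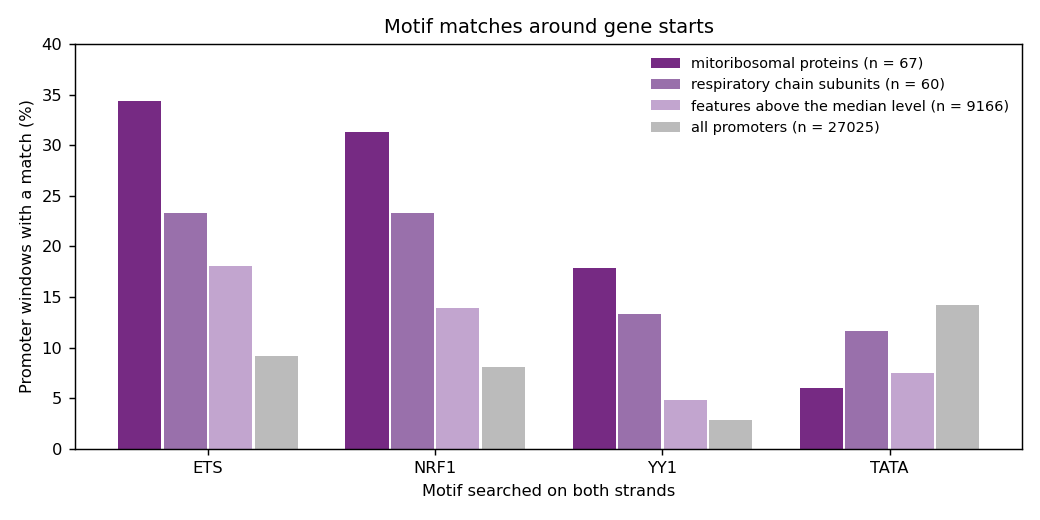
Share of promoter windows (percent, from 0) that hold each searched word on either strand, for mitoribosomal protein genes, respiratory chain subunits, genes above the median level and all windows. The ETS share is 34.3% in the mitoribosomal genes, 18.1% in genes above the median level and 9.12% over all windows. The TATA share is 5.97%, 7.50% and 14.2% in the same sets.

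Genes with and without these words both had mostly negative changes. The 41 genes with any of the ETS, NRF1 and YY1 words had a median log2 change of -0.13 (Tet2-deficient minus wild-type) and the 26 without had -0.22, with 31 and 24 negative changes. Many of the genes share a start region with a neighbour on the opposite strand: in 24 of 67 (35.8%) a neighbouring gene that runs the other way begins within 1000 bases, against 30.0% of respiratory chain subunits, 18.8% of genes above the median level, 12.5% of cytosolic ribosomal protein genes and 12.3% of all windows. Both genes of the pair with 41 bases between their starts, Mrpl46 and Mrps11, had lower values in Tet2-deficient macrophages, with changes of -0.56 and -0.28. Other pairs join the mitoribosome to a different mitochondrial task. Mrpl47 (-0.30) stands head to head with Ndufb5 (-0.47), a complex I subunit, Mrps12 (0.04) with Sars2 (-0.14), the mitochondrial seryl-tRNA synthetase, and Mrpl43 (-0.19) with Twnk (0.23), the mitochondrial DNA helicase. Partners outside mitochondria had values of either sign, such as 0.21 for the chaperonin subunit Tcp1 beside Mrpl18 (-0.30) and -0.09 for the proteasome subunit Psma2 beside Mrpl32 (-0.63). None of the partners named here passed the test.

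The arrays themselves were alike. Median log2 values ran from 3.47 to 3.60 on the Tet2-deficient arrays and from 3.54 to 3.66 on the wild-type arrays, and correlations across features were 0.989 to 0.991 among Tet2-deficient arrays, 0.988 to 0.990 among wild-type arrays and 0.983 to 0.987 between genotypes. The Tet2 feature was not lower on the arrays labelled Tet2-deficient: it read 5.55, 5.25 and 5.75 there and 5.40, 5.07 and 5.10 on the wild-type arrays, a log2 change of 0.32 ± 0.16 (SE, n = 3 per group; limma adjusted p = 0.365). Which part of the gene the feature measures is not stated, so it may lie outside the deleted part and then checks nothing, and the genotypes are given as labelled. Of 12 general macrophage markers 10 were measured, and all 10 stood above the array median on all 6 arrays, whereas all 7 measured T cell markers, 8 of 10 neutrophil markers, 9 of 10 mast cell and eosinophil markers and 3 of 7 B cell markers stood below it on all 6. Of the 10 macrophage markers 2, Cd14 and Itgam, rose and none fell, beside 0.647% and 0.305% of all features. Their changes were negative in 5 and positive in 5. Without overlap, 3 were lower and 4 higher, beside 12.2% lower and 9.74% higher over all features. Markers of other cells were not all low, since 2 of 7 B cell markers and 6 of 10 mesothelium and fibroblast markers stood above the median on all 6 arrays. In the neutrophil list and in the mast cell and eosinophil list, 1 of 10 each stood above it on all 6. So did all 7 measured monocyte markers. The monocyte markers averaged a deviation of 0.36, -0.14 and -0.12 on the Tet2-deficient arrays and -0.06, -0.13 and 0.09 on the wild-type arrays. Their part in the results was not tested. The mesothelium and fibroblast markers averaged a deviation of 0.05, 0.68 and -0.22 on the Tet2-deficient arrays and -0.32, 0.11 and -0.29 on the wild-type arrays, highest on Tet2-deficient replicate 2, and their part in the results was not tested. Over all features, 240 of 25206 (0.952%) passed the threshold, an adjusted p of 0.05. In Tet2-deficient macrophages 163 of these (0.647% of all features) had the higher level and 77 (0.305%) the lower one.

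As a group, the mitochondrial ribosomal protein genes had slightly lower values in Tet2-deficient than in wild-type macrophages, and 2 of them passed the test. Mrpl22 and Mrpl13, both of the large subunit, fell, none of the 76 rose, and 74 did not pass; at an unadjusted p under 0.05 there were 18 lower genes and 1 higher gene of 76, while 8.37% of all features were lower and 7.63% higher at that p. The changes were negative in 62 genes and positive in 14, that is negative in 81.6% of them, against 57.9% of all features. Their median log2 change was -0.18 (quartiles -0.31 and -0.03), against -0.04 over all features and -0.01 over features above the median level, so that most of the individual changes were small. All 3 Tet2-deficient values lay below all 3 wild-type values in 26 of the 76 genes (34.2%), against 12.2% of all features, and above them in 1 gene (1.32%), Mrps18b, against 9.74% of all features. At the looser adjusted p of 0.25, 15 genes were lower (all features 6.05%) and 1 was higher (all features 5.95%). In RNA from a whole culture, fewer cells of a type and less RNA per cell cannot be told apart. Of the 76 genes, 72 stood above the array median on all 6 arrays. Mrps36 stood below it on all 6, and Mrpl42, Mrps14 and Mrpl23 on some.

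**Figure D2:**
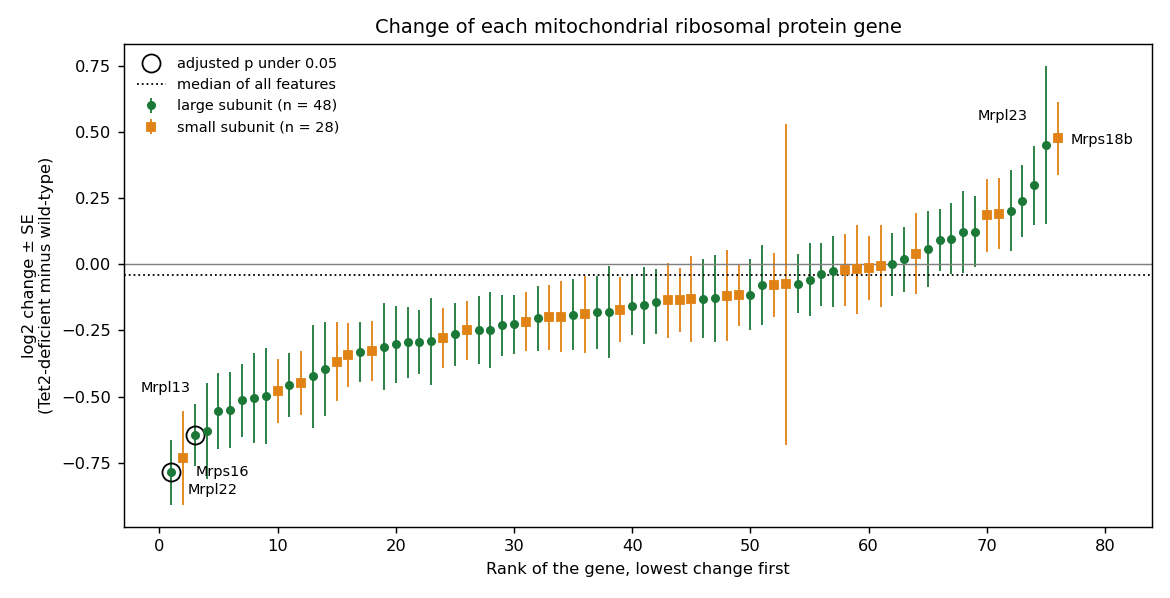
Log2 change of each gene, Tet2-deficient minus wild-type, with its standard error (n = 3 arrays per group), ordered from the lowest to the highest, with green circles for the large and orange squares for the small subunit. Changes run from -0.79 (Mrpl22) to 0.48 (Mrps18b), and rings mark Mrpl22 and Mrpl13, the genes with an adjusted p under 0.05.

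The difference between the genotypes was not equally large on every array. Averaged over the 76 genes, the deviation from each gene's mean over 6 arrays was -0.02, -0.10 and -0.15 on the Tet2-deficient arrays (replicates 1, 2 and 3) and 0.11, 0.07 and 0.09 on the wild-type arrays, so that the groups did not overlap and Tet2-deficient replicate 1 stood closest to the wild-type arrays. That array held the highest of the 6 values in 20 of the 76 genes, against 2 and 0 genes for Tet2-deficient replicates 2 and 3, and 19, 13 and 22 for the wild-type arrays. It held the lowest value in 11 genes, whereas replicates 2 and 3 held it in 18 and 29, and the wild-type arrays in 2, 9 and 7. Without Tet2-deficient replicate 1 the median change was -0.22, and without replicate 3, the lowest array, it was -0.13. Markers of resident peritoneal macrophages, the cells present before the irritant, also moved with genotype. Past the threshold 5 of 12 rose and none fell, beside 0.647% and 0.305% of all features. Without overlap, 10 were higher and 1 lower, beside 9.74% higher and 12.2% lower over all features. The mean deviation of the 12 markers was 0.30, 0.61 and 0.61 on the Tet2-deficient arrays and -0.24, -0.61 and -0.67 on the wild-type arrays. Of the 12, 10 stood above the array median on all 6 arrays, and the part of these cells in the ribosomal protein values was not tested.

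**Figure D3:**
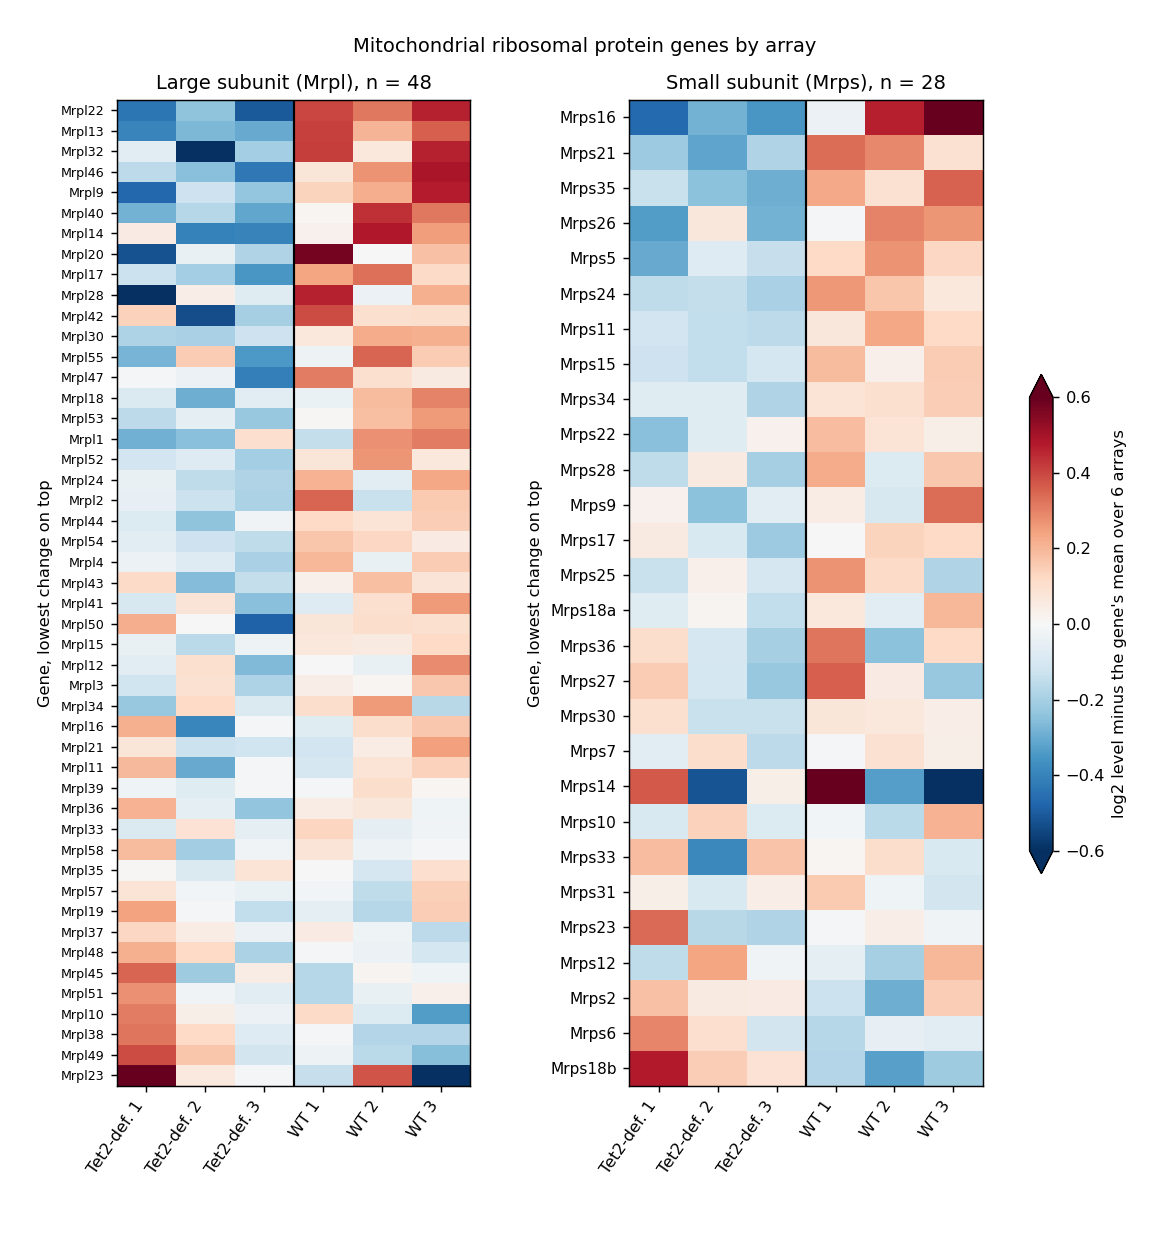
Heat map of every gene on every array, as its log2 level minus its own mean over the 6 arrays, with Tet2-deficient arrays left of wild-type arrays and large-subunit genes left of small-subunit genes, the lowest change on top; colours stop at -0.6 and 0.6. Blue on the left and red on the right fill the upper rows, and the lowest rows, such as Mrps18b and Mrpl49, show the opposite, most of all on Tet2-deficient replicate 1.

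In the large subunit, 2 genes fell, none rose and 46 did not pass, with 38 negative and 10 positive changes and a median of -0.19. Over all features 0.305% fell and 0.647% rose. At an unadjusted p under 0.05, 11 of 48 were lower and none higher, beside 8.37% lower and 7.63% higher over all features. Mrpl22 encodes the counterpart of bacterial L22, a protein that lines the tunnel through which the new chain leaves the ribosome. It read 4.72, 4.91 and 4.65 (log2) in Tet2-deficient macrophages and 5.55, 5.47 and 5.61 in wild-type macrophages. The highest Tet2-deficient value lay more than 0.5 below the lowest wild-type value, and the change was -0.79 ± 0.12 (SE, n = 3 per group), or 0.580 of the wild-type level (limma adjusted p = 0.0264). Mrpl13, the counterpart of bacterial L13, read 6.57, 6.69 and 6.66 in Tet2-deficient macrophages and 7.37, 7.17 and 7.32 in wild-type macrophages. Its groups were also clearly apart, with a change of -0.65 ± 0.12, or 0.639 of the wild-type level (limma adjusted p = 0.0414). Both calls stood close to the threshold: leaving out any single array ended that of Mrpl13 (adjusted p 0.0737 to 0.161), and leaving out any array other than Tet2-deficient replicate 2 ended that of Mrpl22 (adjusted p 0.0603 to 0.120), with the direction kept each time. With each array centred on its median, the adjusted p was 0.0735 for Mrpl13.

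The next lowest large-subunit genes had separated or nearly separated groups but did not pass. Mrpl32, a protein that in yeast and mouse is trimmed by the m-AAA protease after import, read 4.76, 4.15 and 4.62 in Tet2-deficient and 5.24, 4.89 and 5.29 in wild-type macrophages (change -0.63 ± 0.18, adjusted p = 0.133 by limma). Mrpl9, the counterpart of bacterial L9, read 5.30, 5.64 and 5.54 in Tet2-deficient and 5.90, 5.99 and 6.24 in wild-type macrophages (change -0.55 ± 0.14, adjusted p = 0.106 by limma). Neither gene's groups overlapped, although Mrpl32 spread over 0.6 log2 units among the Tet2-deficient arrays. Mrpl46 and Mrpl40, which belong to the central protuberance, the knob of the large subunit that faces the small one, had changes of -0.56 ± 0.14 and -0.51 ± 0.14 (limma adjusted p = 0.104 and 0.114). Mrpl46 read 4.90, 4.81 and 4.63 in Tet2-deficient and 5.13, 5.32 and 5.55 in wild-type macrophages, and Mrpl40 read 6.31, 6.42 and 6.28 in Tet2-deficient and 6.61, 7.03 and 6.91 in wild-type macrophages. Mrpl14, which lies at the contact between the subunits, read 6.25, 5.79 and 5.80 in Tet2-deficient and 6.23, 6.68 and 6.45 in wild-type macrophages, so that replicate 1 of the Tet2-deficient group lay just above the lowest wild-type value (change -0.51 ± 0.17, limma adjusted p = 0.188). Features restricted to those above the median level gave Mrpl46 and Mrpl9 adjusted p-values of 0.0480 and 0.0483.

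At the other end of the large subunit, no gene passed the test. Mrpl23, another tunnel-exit protein, had the highest change there, 0.45 ± 0.30 (limma adjusted p = 0.520), but it was dim and scattered, at 3.56, 2.98 and 2.91 in Tet2-deficient and 2.79, 3.30 and 2.02 in wild-type macrophages. Mrpl49, a protein found only in mitochondrial ribosomes, read 5.64, 5.42 and 5.14 in Tet2-deficient and 5.22, 5.09 and 4.998 in wild-type macrophages (change 0.30 ± 0.15, limma adjusted p = 0.371). Its Tet2-deficient replicate 3 lay within the wild-type range. Mrpl38 of the central protuberance (0.24), Mrpl10 at the base of the stalk that recruits translation factors (0.20) and Mrpl51 (0.12) had overlapping groups as well. In all 5 of these genes Tet2-deficient replicate 1 had the highest of the 6 values.

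Grouped by place in the structure, a grouping made after the values were seen, each of 3 regions of the large subunit held changes of both signs. Around the tunnel exit, Mrpl17, Mrpl22, Mrpl24 and Mrpl47 had changes of -0.46, -0.79, -0.25 and -0.30, while Mrpl23 had 0.45 and Mrpl45, which anchors the ribosome to the inner membrane, had 0.12 (median of the 6 genes -0.28). In the central protuberance, Mrpl40, Mrpl46 and Mrpl18 had -0.51, -0.56 and -0.30, while Mrpl38 had 0.24, Mrpl48 had 0.10 and Mrpl58 had -0.03 (median -0.16). Mrpl58, also called Ict1, can release the chain from stalled ribosomes, and its change of -0.03 ± 0.13 was smaller than the spread between arrays (limma adjusted p = 0.947). In the stalk, Mrpl10, Mrpl11, Mrpl12 and Mrpl53 had 0.20, -0.08, -0.16 and -0.29 (median -0.12). Mrpl12, a stalk protein also reported to bind the mitochondrial RNA polymerase, read 7.24, 7.40 and 7.04 in Tet2-deficient and 7.30, 7.26 and 7.59 in wild-type macrophages, with groups that overlapped (change -0.16 ± 0.14, limma adjusted p = 0.660).

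**Figure D4:**
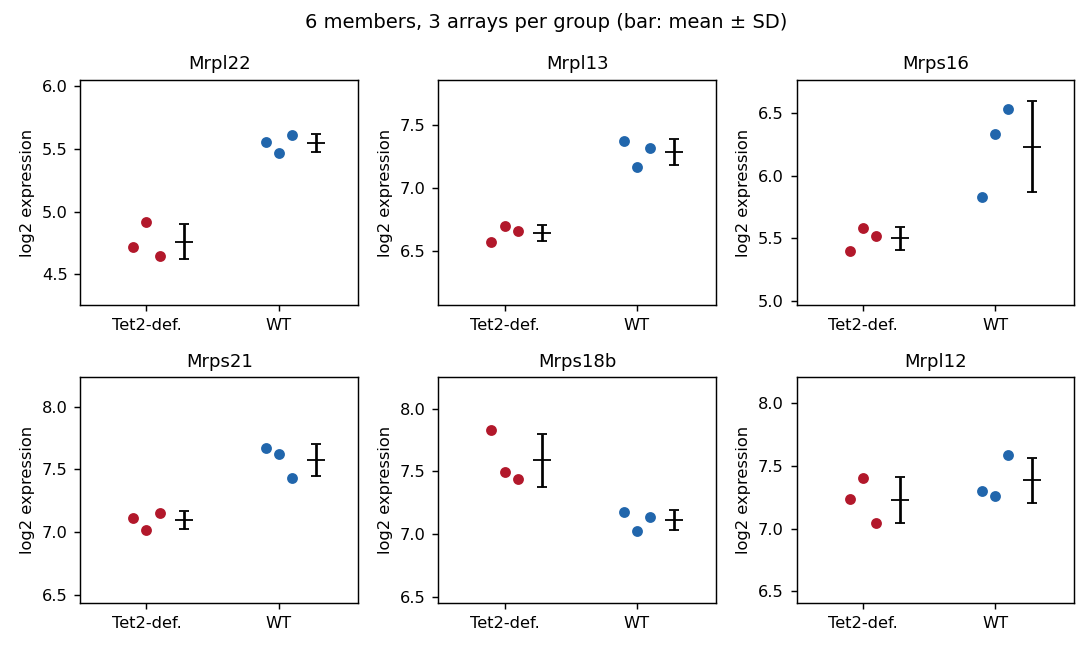
Log2 expression of 6 genes on each array (points), with the mean ± SD of each group (n = 3), Tet2-deficient left of wild-type; every panel spans 1.8 log2 units around its own midpoint. The groups lie apart in Mrpl22, Mrpl13, Mrps16, Mrps21 and, with Tet2-deficient above wild-type, Mrps18b, and overlap in Mrpl12.

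In the small subunit, no gene passed the test in either direction (0 of 28, with 7 lower and 1 higher at an unadjusted p under 0.05, at which 8.37% of all features were lower and 7.63% higher), and the changes were negative in 24 and positive in 4, with a median of -0.14. Mrps16, the counterpart of bacterial S16 and a gene mutated in a human mitochondrial disease, read 5.40, 5.58 and 5.52 in Tet2-deficient and 5.83, 6.33 and 6.53 in wild-type macrophages. The groups did not overlap, but wild-type replicate 1 lay well below the other wild-type arrays, and the change of -0.73 ± 0.18 had a limma adjusted p of 0.0893. Without wild-type replicate 1 the change of Mrps16 was -0.93, with an adjusted p of 0.0332. Mrps21, the counterpart of bacterial S21, read 7.11, 7.02 and 7.15 in Tet2-deficient and 7.67, 7.62 and 7.43 in wild-type macrophages, again without overlap (change -0.48 ± 0.12, limma adjusted p = 0.0999). With features above the median level, Mrps16 and Mrps21 had adjusted p-values of 0.0422 and 0.0432, and with a trended, robust prior 0.0469 and 0.0353. Mrps12, the counterpart of a protein at the bacterial decoding centre, read 5.43, 5.82 and 5.56 in Tet2-deficient and 5.52, 5.38 and 5.78 in wild-type macrophages, with a change of 0.04 ± 0.15 that lay within the spread and turned to -0.07 without Tet2-deficient replicate 2 and to -0.05 without wild-type replicate 2.

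Mammals have 3 relatives of bacterial S18, and the 2 measured ones had changes of opposite sign. Mrps18b, whose human protein is also reported to bind the retinoblastoma protein, read 7.83, 7.50 and 7.44 in Tet2-deficient and 7.17, 7.03 and 7.14 in wild-type macrophages. All Tet2-deficient values lay above all wild-type values, with replicate 1 the furthest, and the change was 0.48 ± 0.14, or 1.39 times the wild-type level (limma adjusted p = 0.133). Mrps18a read 6.72, 6.80 and 6.64 in Tet2-deficient and 6.85, 6.73 and 6.99 in wild-type macrophages, with overlap (change -0.14 ± 0.12, limma adjusted p = 0.649). The difference between these changes was not tested. After Mrps18b the highest small-subunit changes were 0.19 for Mrps6 and 0.18 for Mrps2, with overlapping groups in both genes. Mrps14 cannot be read as changed or unchanged, since it was dim and its wild-type arrays read 4.30, 2.26 and 1.34.

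Between the subunits the difference was small. The median change of the large subunit minus that of the small subunit was -0.05. Genotypes did not overlap, lower in Tet2-deficient macrophages, in 35.4% (17 of 48) of the large and 32.1% (9 of 28) of the small subunit. Over all features that share was 12.2%. The symbols do not all match the place of the protein: Mrps18a and Mrps30 lie in the large subunit of the mammalian mitoribosome, and Mrps36 is a subunit of the alpha-ketoglutarate dehydrogenase complex. Mrps30 had a change of -0.12 ± 0.12 (limma adjusted p = 0.693) and the dim Mrps36 one of -0.13 ± 0.16 (limma adjusted p = 0.753). Sorted by structure, the 50 large-subunit genes had a median of -0.18 and the 25 small-subunit genes -0.17, a difference of -0.01. By symbol, the difference of medians turned to 0.02 without wild-type replicate 2 and was -0.03 without wild-type replicate 3. The mean deviation of the large subunit minus that of the small subunit was 0.06 on each of these arrays and -0.06 on wild-type replicate 1, against 0.00, -0.02 and -0.04 on the Tet2-deficient arrays. Sorted by the number in the symbol, genes with a bacterial counterpart (45) had a median of -0.19 and the other genes (31) one of -0.14. That sorting misplaces Mrpl47, the counterpart of bacterial L29, and keeps Mrps36 among the others. With Mrpl47 moved and Mrps36 left out, an alternative added after the data were seen, the medians were again -0.19 (46 genes) and -0.14 (29 genes). Mrpl22 and Mrpl13 have a bacterial counterpart, while Mrpl46 and Mrpl40, also among the lowest changes, do not.

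The spread among arrays differed between genes of the same complex. The SD over the 3 Tet2-deficient arrays was 0.02 in Mrps11 and Mrps15 and 0.03 in Mrps24 and Mrpl39, whose wild-type values were also within 0.10 (SD). Mrps11 read 5.53, 5.50 and 5.49 in Tet2-deficient and 5.71, 5.88 and 5.76 in wild-type macrophages, so that a change of -0.28 separated the groups. Mrps24, which despite its number is the counterpart of bacterial S3, read 6.83, 6.84 and 6.79 in Tet2-deficient and 7.24, 7.15 and 7.05 in wild-type macrophages (change -0.33 ± 0.11, limma adjusted p = 0.203). Several more genes had the same form, a modest lower value without overlap. Mrpl30 read 7.63, 7.62 and 7.69 in Tet2-deficient and 7.88, 8.04 and 8.03 in wild-type macrophages (change -0.33 ± 0.11, limma adjusted p = 0.194). Mrps35, found only in mitochondrial ribosomes, read 5.36, 5.25 and 5.20 in Tet2-deficient and 5.72, 5.59 and 5.85 in wild-type macrophages (change -0.45 ± 0.12, limma adjusted p = 0.117). Mrpl17 of the tunnel exit read 6.97, 6.90 and 6.75 in Tet2-deficient and 7.34, 7.43 and 7.22 in wild-type macrophages (change -0.46 ± 0.12, limma adjusted p = 0.113). Mrpl28 and Mrpl50 spread more, with SDs of 0.34 and 0.36 over the Tet2-deficient arrays, and their groups overlapped.

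Among the other parts of the mitochondrial translation system no gene passed the limma test. At an unadjusted p under 0.05 there were 1 lower gene among the 4 measured proteins with other names, 2 among the 13 translation factors and 4 among the 27 assembly factors, and none higher, beside 8.37% lower and 7.63% higher over all features. Of 7 mitoribosomal proteins with other names 4 were measured, with a median change of -0.01. Chchd1, a small-subunit protein, had tight groups at 5.43, 5.47 and 5.44 in Tet2-deficient and 5.96, 5.98 and 6.01 in wild-type macrophages (change -0.54 ± 0.11, limma adjusted p = 0.0553), whereas Dap3, a GTP-binding protein of the small subunit (0.20 ± 0.14, limma adjusted p = 0.560), and Ptcd3, which sits by the entry of the messenger RNA (0.04 ± 0.14, limma adjusted p = 0.930), had overlapping groups. The 13 translation factors had a median of -0.01, with Mtif3, an initiation factor, at -0.42 and Tsfm, an elongation factor, at -0.30. The 27 assembly factors had a median of -0.07. Mpv17l2, an inner-membrane protein with a role in assembly, had -0.61 ± 0.12 (limma adjusted p = 0.0558), and Mrm2, which methylates the large ribosomal RNA, had -0.50 ± 0.13 (limma adjusted p = 0.104).

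The enzymes that charge mitochondrial tRNAs, listed together with the amidotransferase subunits Gatb, Gatc and Qrsl1, mostly had positive changes. Changes were positive in 15 of 21 genes, against 10607 of 25206 features. The median was 0.08, with Lars2 (leucine) at 0.43 ± 0.12 and Iars2 (isoleucine) at 0.50 ± 0.18 (limma adjusted p = 0.119 and 0.203). The 20 genes of mitochondrial transcription and RNA processing had a median of 0.00, with Slirp, which stabilises mitochondrial messenger RNAs, at -0.62 and Trmt10c, a subunit of the mitochondrial RNase P, at -0.36. Of 11 regulators of mitochondrial biogenesis none passed, and the 2 with the smallest p-values were positive, Sp1 at 0.30 ± 0.13 and Nrf1 at 0.37 ± 0.15 (limma adjusted p = 0.275 each). The import machinery, 22 genes, had a median of -0.07, with Tomm6, a small subunit of the outer-membrane pore, at -0.58 ± 0.12 (limma adjusted p = 0.0585) and Timm10, an intermembrane-space chaperone, at -0.43 ± 0.12 (limma adjusted p = 0.118). Tomm6 read 7.24, 7.43 and 7.19 in Tet2-deficient and 7.83, 7.93 and 7.83 in wild-type macrophages, with groups well apart. At an unadjusted p under 0.05 there were 3 higher tRNA synthetases, 3 lower and 1 higher gene of transcription, 2 higher regulators and 8 lower and 1 higher gene of import, of 21, 20, 11 and 22 genes, beside 8.37% lower and 7.63% higher over all features.

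The subunits of the respiratory chain and the ATP synthase encoded in the nucleus, partners of the proteins that the mitoribosome makes, also had mostly negative changes. Of 75, 2 fell, none rose and 73 did not pass. Changes were negative in 62, with a median of -0.24. In 37 (49.3%) the groups did not overlap, lower in Tet2-deficient macrophages. Over all features 0.305% fell, 57.9% of changes were negative and 12.2% had groups without overlap and lower. Atp5e, a subunit of the rotor of the ATP synthase, read 7.22, 7.62 and 7.38 in Tet2-deficient and 8.09, 8.15 and 8.24 in wild-type macrophages (change -0.75 ± 0.13, limma adjusted p = 0.0383). Ndufv3, an accessory subunit of complex I, read 5.36, 5.34 and 5.32 in Tet2-deficient and 5.99, 5.92 and 5.87 in wild-type macrophages (change -0.59 ± 0.11, limma adjusted p = 0.0453). Leaving out any single array ended the call of Ndufv3 (adjusted p 0.0853 to 0.169), and leaving out any array other than Tet2-deficient replicate 2 ended that of Atp5e (adjusted p 0.0714 to 0.157). Centring the arrays gave Ndufv3 an adjusted p of 0.0863, and removing the trend over gene span and level gave Atp5e one of 0.0644. The ribosomal proteins of the cytosol also had a negative median, -0.17, with 39 of 52 changes negative. In 12 of these genes (23.1%, against 12.2% of all features) the groups did not overlap and were lower. None passed. At an unadjusted p under 0.05 there were 14 lower and 3 higher, beside 8.37% lower and 7.63% higher over all features. Rps20 had -0.82 ± 0.17 (limma adjusted p = 0.0570) and Rps15a 0.63 ± 0.16 (limma adjusted p = 0.107). The arrays fell in a different order there: the mean deviation of cytosolic ribosomal proteins was -0.17, 0.03 and -0.12 on the Tet2-deficient arrays and 0.09, 0.11 and 0.07 on the wild-type arrays, with the lowest value on Tet2-deficient replicate 1. Cytosolic ribosomal protein genes have many processed copies in the genome, and cross-hybridisation of their features was not tested.

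**Figure D5:**
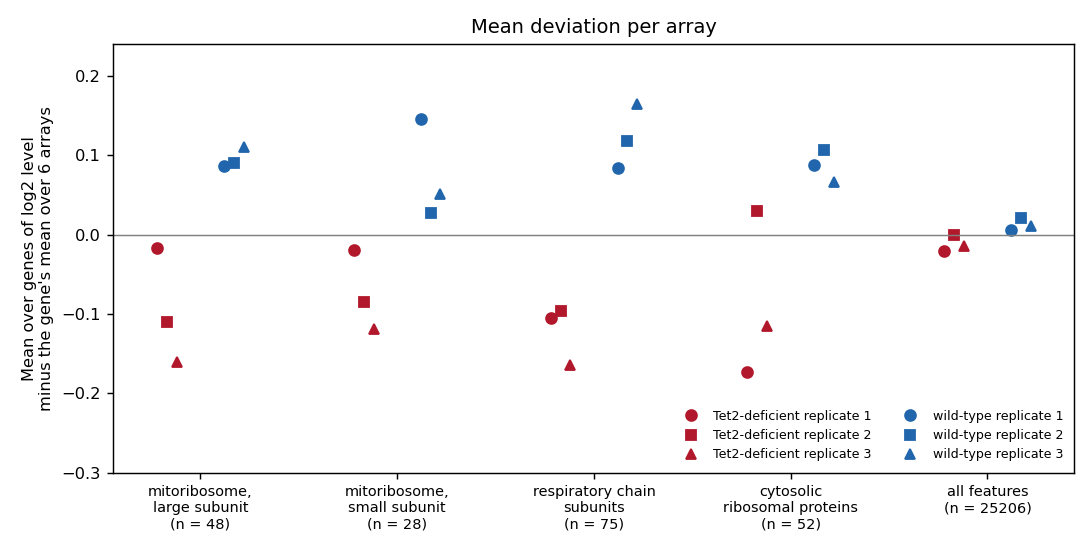
Mean deviation (log2 level minus the gene's own mean over 6 arrays, averaged over the genes of a set) on each array, Tet2-deficient (red) left of wild-type (blue), with a marker shape for each replicate number, for 5 sets of genes. Tet2-deficient arrays lie below wild-type arrays in all 5 sets, though only slightly in all features. There the values are -0.021, -0.001 and -0.014 on Tet2-deficient and 0.005, 0.020 and 0.011 on wild-type arrays. Tet2-deficient replicate 1 is the nearest to the wild-type arrays in both mitoribosomal sets and the lowest in cytosolic ribosomal proteins.

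Gene length differed between these sets and all features. The genes of the mitoribosome are short, with a median span of 7690.5 bases, against 19399.5 bases for features above the median level and 15557.5 bases for all features with a span. With each array's joint trend over gene span and mean level removed, the median change of the 76 genes was -0.13 (features with a span -0.01). In that fit 57 changes were negative, and Mrpl22 and Mrpl13 were again the genes that passed. Span and level were removed together, so the part of gene length alone was not tested.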

How the data were processed

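Labelled RNA of 6 macrophage samples was hybridised to whole-transcript arrays. The deposited table holds log2 expression values that the authors made with RMA in affy 1.36.1, per the submitters' processing notes; the probe summary behind each feature is not given in the sources used here. Of 25206 features, 23185 have 1 symbol in the platform annotation and 2021 have none. Values run from 0.35 to 12.7, and precision is limited by the small number of arrays. Groups follow the genotype label.

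All features were fitted with limma 3.58.1 (R 4.3.3; lmFit and eBayes, genotype as the only term, two-sided), Benjamini-Hochberg adjustment ran over all features, and the threshold was an adjusted p of 0.05. A change is the Tet2-deficient minus the wild-type mean. The procedure was tested on simulated data with planted changes larger than any in the mitoribosomal genes, so recovery of smaller changes was not tested. Named genes are those past the threshold, the 8 highest and the 8 lowest changes, the 6 smallest p-values, a short list picked for function, and in each related list the genes past the threshold or else the 2 with the smallest p. Genes named for their place, neighbour, spread or tight groups were picked after their values were seen, and 3 genes that are no cytosolic ribosomal proteins were then dropped from that list. The members and lists were chosen with earlier results of these data known. Promoter windows (250 bases before to 50 after a start) are RefSeq's, GRCm38.p6. Alternatives were another scaling, a level filter, a replicate block, other variance settings, array weights, a trend removed, other thresholds and each array left out.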

Additional observations from a re-analysis of the deposited data

How the results depend on the processing

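The median change of the 76 genes was negative in every alternative run. It was -0.11 with arrays centred on their medians, where the median of all features moved from -0.04 to 0.03. It was -0.13 with the trend over gene span and level removed (features with a span -0.01). With cyclic loess it was -0.22 (all features -0.003), and with 1 array left out it ran from -0.22 to -0.13. The medians of the large and small subunits became -0.12 and -0.0700 on centring, the large became -0.13 with the trend removed, and with 1 array left out they ran from -0.23 to -0.16 (large) and from -0.21 to -0.11 (small). Large minus small ran from -0.0757 to 0.0163 with 1 array left out, positive without wild-type replicate 2 alone. The difference between genes with a bacterial counterpart and the others, tried under alternatives chosen after seeing the data, ran from -0.11 to -0.00117 when 1 array was left out, and was -0.0578 with Mrpl47 moved and Mrps36 left out. The number of genes past the threshold, 2, became 4 and 16 at adjusted p-values of 0.1 and 0.25 and 1 with centring. It was 6 of 73 with features above the median level only, 5 with a trended, robust prior and 0 to 1 with 1 array left out. Calls over all features moved too, from 240 to 791 and 3026 at those thresholds and to 273 with centring. They were 846 of 12603 with the level filter, 814 with the trended, robust prior and 11 to 155 with 1 array left out. With the replicate number as a block, 1 gene passed, Mrpl22, and Mrpl13 had an adjusted p of 0.0681. Same-numbered arrays deviated together weakly (correlations 0.08, 0.19 and 0.02), and differently numbered arrays of the 2 genotypes had correlations from -0.14 to 0.06. The labels do not say whether the numbers pair the mice, and the main fit did not take them to. The 2 calls in the related lists became 14 and 56 at the looser thresholds, 1 with centring, 7 with cyclic loess and 17 with the level filter. They became 0 with the block (Atp5e at 0.0508 and Ndufv3 at 0.0693), 19 with the trended, robust prior and 11 with array weights. There was 1 with the trend removed and 0 to 2 with 1 array left out. Over all features the calls were 292 with cyclic loess, 230 with the block, 498 with array weights and 233 of 23182 with the trend removed. Mrps12 turned to -0.0676 and -0.0490 without Tet2-deficient or wild-type replicate 2, and reached 0.150 without wild-type replicate 3. Mrpl58 turned to 0.0385 with centring, and to 0.0704 and 0.00476 without Tet2-deficient replicate 2 or wild-type replicate 1. The cause was not tested for any of these. With 3 arrays per group, changes of the size seen in most of these genes lie near the spread between arrays.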
